A study of Homo sapiens with 18 samples.

Results

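The core spliceosome genes described here encode the proteins of the spliceosomal snRNPs, the factors that recognise the branch point and 3′ splice site, and the helicases and PRP19-complex proteins of the splicing cycle. The set was chosen by gene symbol as a fixed list of 42 names, and every listed RNA site carrying such a symbol was taken. These genes held 102 of the 15024 distinct sites in the deposited lists, in 28 of the 42 genes. The sites come from HEK293T, a human embryonic kidney cell line, in which the RNA-binding protein hnRNP C was mapped by PAR-CLIP, a method that crosslinks protein to RNA and sequences the bound fragments. PARCLIP-MeRIP adds a pull-down of the bound fragments with an antibody to N6-methyladenosine (m6A), and its IP and Input groups, both of wild type cells, had 2 samples each. PAR-CLIP of hnRNP C was also done in METTL3 knockdown, METTL14 knockdown and wild type control cells, with 2 samples each, and RNA-seq in HNRNPC, METTL3 and METTL14 knockdown and control cells, again with 2 samples each. How the knockdowns were made is not given in the sources used here.

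Splicing begins when U1 snRNP pairs with the 5′ splice site and SF1 and the U2AF proteins mark the branch point and the uridine-rich 3′ end of the intron, after which U2 snRNP and the U4/U6.U5 tri-snRNP join. hnRNP C binds runs of uridines in nascent transcripts and is known to compete with U2AF2 for such runs. An m6A switch is a place where methylation of a nearby adenosine opens local RNA structure and lets hnRNP C reach its uridine run. The genes below are described as RNAs that carry such sites, not as the proteins that act on them.

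A listed entry is a run of 5 or more uridines, called a U-tract, together with a nearby RRACH motif. RRACH is the consensus in which m6A is written, where R is A or G and H is A, C or U. The switch list comes from PARCLIP-MeRIP. The other list is named HCS by the submitters, who do not spell the name out in the sources used here, and it alone says whether a U-tract is exonic or intronic. A site here is a distinct U-tract, and the gap is the number of bases between the facing edges of U-tract and motif. All positions are hg19. The lists give no read count, enrichment or p-value and no value per sample, so read depth is unknown, replicate error cannot be given, and no site or gene was tested. The intervals below are exact binomial 95% intervals and cover counting error only. The bases of the sites are not shown, because the lists give positions and not letters.

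Switch sites were found in 27 of the 42 core spliceosome genes (64.3%, interval 48.03% to 78.4%), with 97 U-tracts and 77 RRACH motifs. Among the 20056 protein-coding genes of the RefSeq table, 19.9% had a switch site. That background was not matched for expression or gene length, which also decide whether a site can be listed. The list of 42 genes was also chosen with earlier results of these data known. An HCS site was held by 8 of the 42 genes (19.0%, interval 8.60% to 34.1%), with 10 U-tracts in all, against 8.66% of the protein-coding genes. Of the 27 genes with a switch site, 7 also held an HCS site (25.9%, interval 11.1% to 46.3%), against 36.6% of all 4187 genes with a switch site, a value inside that interval. SNRPB2 held an HCS site and no switch site, and 14 genes held no site in either list.

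**Figure D1:**
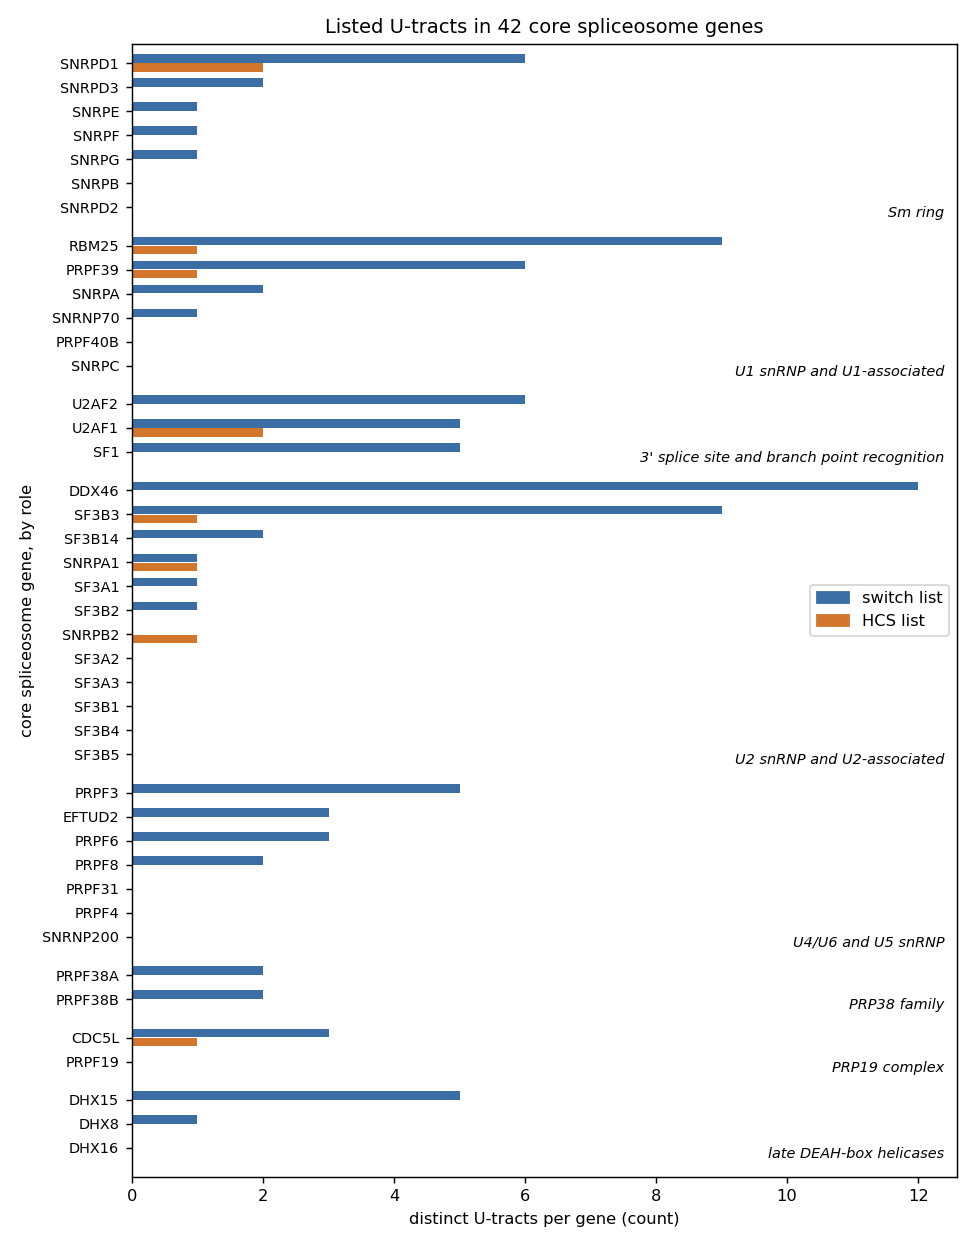
Number of distinct U-tracts (x axis, count) listed in each of the 42 core spliceosome genes (y axis, grouped by role), in the switch list (blue) and in the HCS list (orange). DDX46 had the most switch sites with 12 and no HCS site, SNRPD1 and U2AF1 had 2 HCS sites each, and 14 genes had no bar.

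The sites were spread unevenly. DDX46 held 12 switch sites, RBM25 and SF3B3 held 9 each, and PRPF39, SNRPD1 and U2AF2 held 6 each. The 3 leading genes held 30 of the 97 switch sites (30.9%). A count of 9 or more was reached by 7.52% of all genes with a switch site. At the other end, 8 of the 27 genes held a single switch site (29.6%), against 39.0% of the 4160 other genes with a switch site, and the median was 2 sites per gene both in the core spliceosome genes and in the other genes.

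The Sm proteins form the ring around the snRNAs of U1, U2, U4 and U5. Switch sites were listed in 5 of the 7 Sm genes, against 19.9% of the protein-coding genes, with 11 sites in all. HCS sites were held by 1 of the 7, against 8.66%. SNRPD1, which encodes SmD1, held 6 switch sites and 2 HCS sites on the plus strand of chromosome 18, and both HCS sites were also in the switch list. The first, at 19192829 to 19192833, is intronic and begins at transcript position 571, counted from the transcript start with introns included. It has 5 uridines, and its motif lies upstream across a gap of 14 nt. The second HCS site of SNRPD1, at 19209138 to 19209143, is exonic, with 6 uridines and a downstream motif across a gap of 34 nt.

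Both HCS sites of SNRPD1 share their motif with a U-tract that only the switch list holds. At the intronic site the other U-tract, at 19192835 to 19192841, has 7 uridines and a gap of 20 nt, so the HCS list holds the shorter and nearer of the pair. At the exonic site the other U-tract, at 19209170 to 19209174, has a gap of 3 nt, so there the HCS list holds the longer and farther of the pair. The remaining switch sites of SNRPD1 had downstream gaps of 17 nt and 50 nt, and 50 nt was the widest gap of any core spliceosome site.

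SNRPD3 (SmD3) held 2 switch sites on the plus strand of chromosome 22, with gaps of 39 nt downstream and 6 nt upstream. The switch list leaves the symbol of these entries blank, and they were assigned through their RefSeq transcript. SNRPE, SNRPF and SNRPG held 1 site each, with gaps of 46, 47 and -1 nt, where -1 means that U-tract and motif overlap by 1 base. SNRPB and SNRPD2 held none. By symbol, the RefSeq table names 11 pseudogenes of SNRPE, 4 of SNRPF and 20 of SNRPG. How reads that align to several copies were treated is not given in the sources used here, so the single sites of these genes are uncertain. The same holds for SNRPA1 and PRPF38A, with 2 named pseudogenes each, and for SNRPB2, with 1. A lack of listed sites is uncertain for the same reason in SNRPC, with 20 named pseudogenes, and in SNRPD2 and SF3A3, with 2 each. SNRPB, SF3A2, SF3B4 and PRPF19, also without a site, have 1 each.

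U1 snRNP recognises the 5′ splice site. Of the 6 genes of U1 and its partners, 4 held switch sites, against 19.9% of the protein-coding genes, with 18 sites in all. RBM25, an SR-like protein that associates with U1 snRNP, held 9 of them on the plus strand of chromosome 14, with a median gap of 4 nt. Its HCS site at 73569292 to 73569296 is intronic and was also in the switch list. The motif of that site lies upstream and overlaps the U-tract by 1 base, so that the last base of the motif is the first uridine of the tract. RBM25 also held a motif at 73571095 to 73571099 with 3 U-tracts around it. Tracts of 6 and 13 uridines lie before this motif at gaps of 27 and 3 nt, and a tract of 5 uridines follows it at 2 nt.

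PRPF39, a U1-associated protein of the PRP39 family, held 6 switch sites on the plus strand of chromosome 14, and none of them had the minimal length of 5 nt. Its U-tracts were 6, 7, 8, 9, 10 and 21 nt long. The tract of 21 uridines, at 45565498 to 45565518, lies 4 nt after its motif and was the longest of the core spliceosome genes. PRPF39 thus held 4 of the 8 core spliceosome U-tracts of 8 nt or more. In genes outside the core list, 63.8% of switch sites had tracts of 5 nt and 9.89% had tracts of 8 nt or more. The tract lengths of PRPF39 were picked out after the sites had been seen, and the difference was not tested. The HCS site of PRPF39, at 45553998 to 45554003, is intronic and begins at transcript position 698. It has 6 uridines with an upstream motif at a gap of 20 nt. It was not in the switch list, and the nearest switch site of the gene was 1954 nt away.

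Among the proteins specific to U1 snRNP the counts were low. SNRPA held 2 switch sites with downstream gaps of 36 and 13 nt, and SNRNP70 held 1 with a downstream gap of 2 nt, all with 5 uridines. SNRPC, another U1 protein, and PRPF40B held no site.

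Recognition of the 3′ splice site rests on SF1, which binds the branch point, U2AF2, which binds the pyrimidine tract, and U2AF1, which reads the AG at the intron end. All 3 genes held switch sites, against 19.9% of the protein-coding genes, with 16 sites in all. Their median gap was 8 nt, against 17 nt in genes outside the core list. The 16 sites come from 3 genes only, and the difference was not tested. U2AF1, on chromosome 21 (minus strand), held 5 switch sites and 2 HCS sites, and no U-tract was in both lists. Its exonic HCS site, at 44513197 to 44513201, begins at transcript position 14487 and has a downstream motif at a gap of 38 nt. The intronic one, at 44524189 to 44524193, begins at position 3495 and has an upstream motif at a gap of 11 nt. The nearest switch sites of U2AF1 were 8348 nt and 801 nt from them. The switch sites of the gene lay between these HCS sites, from position 4301 to 6130, and their U-tracts were 5 to 9 nt long.

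U2AF2 held 6 switch sites on the plus strand of chromosome 19 and no HCS site. Their gaps were 8, 22, 18, 32 and 24 nt with a downstream motif, and the U-tract at 56176471 to 56176475 had an upstream motif with a gap of -1 nt. SF1 held 5 switch sites on the minus strand of chromosome 11, each listed under 3 transcripts, and no HCS site. Gaps were short in SF1, with 2, 9 and -1 nt for upstream motifs and 8 and 0 nt for downstream motifs. All 5 sites of SF1 thus lay within 9 nt of their motif, a limit set by its own widest gap after the sites had been seen. Gaps of 10 nt or less made up 34.5% of the switch sites of genes outside the core list. The difference was not tested.

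U2 snRNP, which contains the SF3A and SF3B complexes, pairs with the branch point, and DDX46, the PRP5 helicase, acts when it joins. Of the 12 genes of this group 6 held switch sites, against 19.9% of the protein-coding genes. The 26 sites had a median gap of 27 nt, against 17 nt in genes outside the core list. That difference was not tested, and DDX46 and SF3B3 held most of the 26 sites, many on shared motifs. DDX46 accounted for 12 of these on the plus strand of chromosome 5, from transcript position 15296 to 70499, and it held no HCS site. Its sites used 8 motifs, 10 of its 12 U-tracts had 5 uridines, and its median gap was 30.5 nt. The motif at 134164945 to 134164949 had 3 U-tracts, at gaps of 39 and 27 nt before it and 8 nt after it.

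SF3B3, a subunit of the SF3B complex, held 9 switch sites on the plus strand of chromosome 16 from position 22206 to 50883. Its HCS site at 70607105 to 70607111 is exonic, has 7 uridines with a downstream motif at a gap of 27 nt, and was also in the switch list. Another stretch of SF3B3 held 3 U-tracts between 70579895 and 70579913, a span of 19 nt with 17 uridines in the listed tracts. The 3 tracts share a downstream motif at gaps of 27, 21 and 13 nt. The other SF3 genes held few sites: SF3B14 held 2 on a shared motif at upstream gaps of 26 and 35 nt, SF3B2 held 1 at 33 nt, and SF3A1 held 1 at 5 nt. No site was listed for SF3B1, the subunit that holds the branch helix, or for SF3A2, SF3A3, SF3B4 and SF3B5.

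SNRPA1 and SNRPB2 encode the paired proteins that bind a stem-loop of the U2 snRNA. SNRPA1, on chromosome 15 (minus strand), held 1 switch site at 101824364 to 101824368 with an upstream gap of 25 nt. Its HCS site was a different U-tract, at 101823854 to 101823859, intronic, with 6 uridines and a downstream motif at a gap of 1 nt. The U-tracts of SNRPA1 were 504 nt apart. SNRPB2, on the plus strand of chromosome 20, held an exonic HCS site at 16721760 to 16721764, with 5 uridines and a downstream motif at a gap of 5 nt.

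The tri-snRNP brings U4, U6 and U5 to the intron. Of its 7 genes 4 held switch sites, against 19.9% of the protein-coding genes, with 13 sites in all. None of the 7 held an HCS site, against 8.66% of the protein-coding genes, and 7 genes are too few to show a lack. PRPF3, a U4/U6 protein, held 5 sites on the plus strand of chromosome 1, among them tracts of 10 and 11 uridines at 150317351 to 150317360 and 150317365 to 150317375. These 2 tracts share an upstream motif at gaps of 20 and 34 nt. PRPF6, which bridges U5 and U4/U6, held 3 sites with gaps of 41, 45 and 16 nt. EFTUD2, the U5 GTPase, held 3 sites with gaps of 40, 28 and 6 nt, each listed under 2 transcripts, and PRPF8, the scaffold of the active site, held 2 with gaps of 40 and 14 nt. In EFTUD2 and PRPF8 all 5 motifs lay upstream of the U-tract, a pairing of genes picked after the sites had been seen. Over the whole group the motif lay upstream at 9 sites and downstream at 4. Among the switch sites of genes outside the core list, 40.3% had an upstream motif. PRPF4, PRPF31 and the helicase SNRNP200 held none.

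The remaining genes act around activation and later steps. PRPF38A held 2 switch sites on a shared motif at downstream gaps of 48 and 25 nt, and PRPF38B held 2 at 11 and 0 nt. CDC5L, a core protein of the PRP19 complex, held 3 switch sites on the plus strand of chromosome 6, at gaps of 12, 20 and 2 nt. The CDC5L site at 44372263 to 44372267 was also its HCS site, intronic, with 5 uridines and an upstream motif at the gap of 12 nt. DHX15, the helicase of spliceosome disassembly, held 5 switch sites on the minus strand of chromosome 4 with gaps from 16 to 46 nt, and DHX8, the helicase that releases the spliced mRNA, held 1 at 14 nt. PRPF19 and DHX16 held no site.

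**Figure D2:**
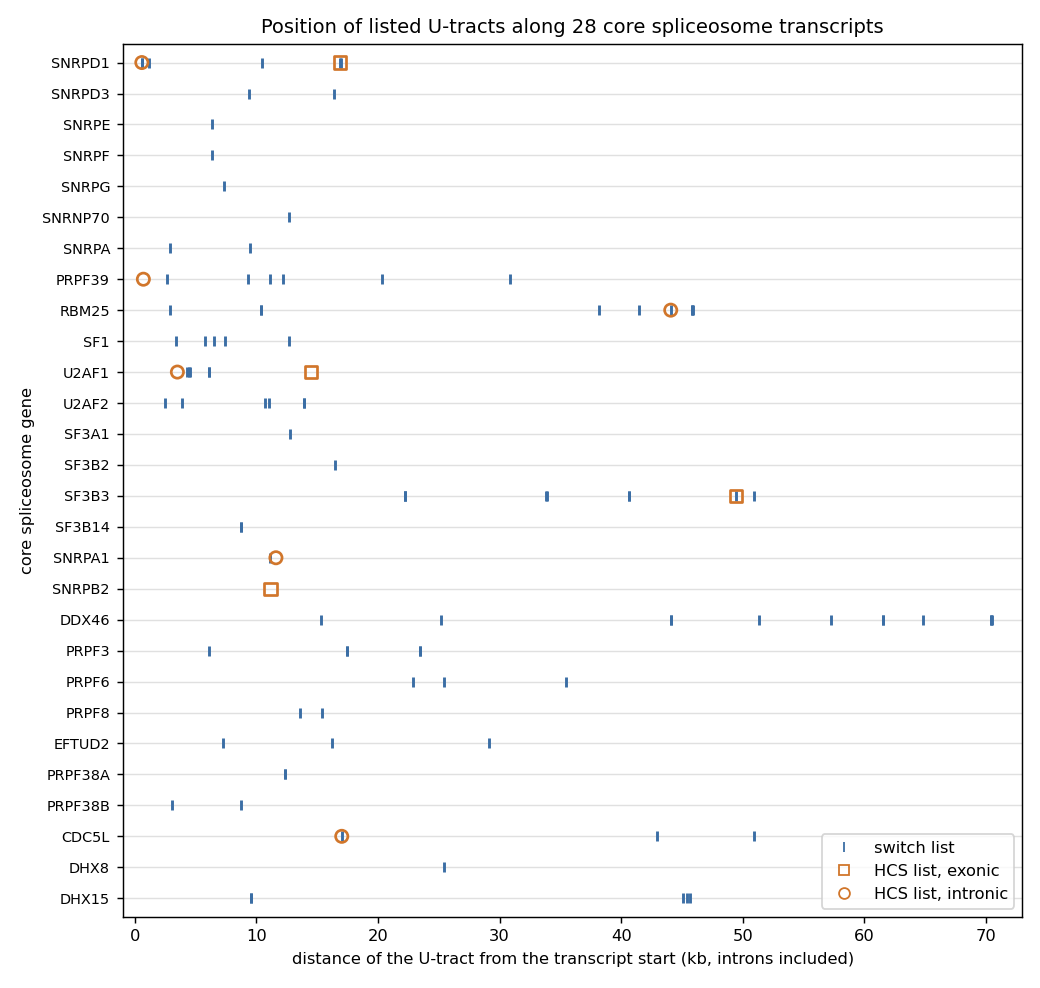
Distance of each listed U-tract from the transcript start (x axis, kb, introns included) in the 28 core spliceosome genes with a site (y axis). Blue bars are switch sites, and orange squares and circles are exonic and intronic HCS sites. A blue bar lies inside the orange mark at 5 U-tracts, in SNRPD1 (2), RBM25, SF3B3 and CDC5L.

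Of the 10 HCS sites, 5 were also in the switch list (50.0%, interval 18.7% to 81.3%), against 40.1% of all HCS sites. Exonic sites made up 4 of the 10 (interval 12.2% to 73.8%), in SNRPD1, SF3B3, U2AF1 and SNRPB2, against 17.0% of all HCS sites. Both background values lie inside the intervals. Of the 4 exonic sites those of SNRPD1 and SF3B3 were in the switch list, and of the 6 intronic sites those of SNRPD1, RBM25 and CDC5L were. The motif lay downstream in 5 and upstream in 5 of the 10, the gap ranged from -1 to 38 nt with a median of 13 nt, and no U-tract was longer than 7 nt. Read from the other side, 5 of the 97 switch sites were also in the HCS list (5.15%, interval 1.69% to 11.6%), against 8.24% of all switch sites.

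The arrangement of U-tract and motif in the 97 switch sites was close to that in the 13281 switch sites of all other genes. The motif lay downstream in 57.7% of core spliceosome sites (interval 47.3% to 67.7%), against 59.7% in other genes. Tracts of 5 nt made up 60.8% (interval 50.4% to 70.6%) and 63.8%, and tracts of 8 nt or more 8.25% (interval 3.63% to 15.6%) and 9.89%. The median gap was 19 nt in core spliceosome genes (interval 14 to 25 nt, from the order statistics) and 17 nt in the others (interval 16 to 17 nt). Gaps of 10 nt or less made up 28.9% in core spliceosome genes (interval 20.1% to 39.0%) and 34.5% in other genes. In 7 core spliceosome sites (7.22%, interval 2.95% to 14.3%) U-tract and motif touched or overlapped, 4 of them by 1 base. In other genes 5.78% of the sites did. Each of these values of the other genes lies inside the interval of the core spliceosome genes.

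**Figure D3:**
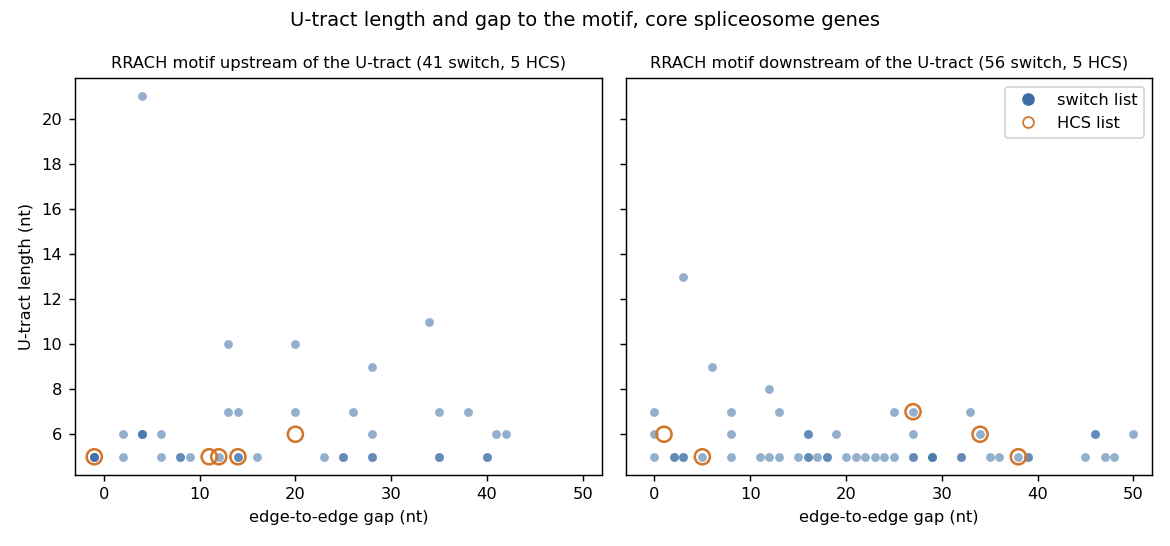
U-tract length (y axis, nt) against the edge-to-edge gap to the RRACH motif (x axis, nt), for motifs upstream (left, 41 switch and 5 HCS sites) and downstream (right, 56 switch and 5 HCS sites) of the U-tract in core spliceosome genes. Most points lie at 5 to 7 nt, the tract of 21 nt belongs to PRPF39 and that of 13 nt to RBM25, and no HCS site (open orange circles) is longer than 7 nt.

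Many sites had close neighbours. Another switch site lay within 100 nt for 39 of the 97 (40.2%, interval 30.4% to 50.7%), in DDX46, DHX15, PRPF3, PRPF38A, RBM25, SF3B14, SF3B3, SNRPD1, U2AF1 and U2AF2, against 30.9% of all switch sites. That share is near the background. Most of it came from 17 motifs listed with more than 1 U-tract, which took 37 of the 97 sites (38.1%, interval 28.5% to 48.6%), against 27.5% of the sites of other genes. Tracts of a motif are not independent, and the interval treats them as if they were. In 3 of the 17 motifs the U-tracts lay on both sides, in DDX46, RBM25 and PRPF3 (17.6%, interval 3.80% to 43.4%), against 22.7% of the 1736 such motifs of other genes.

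Some neighbouring U-tracts were separated by a single base, so that the listed tracts are pieces of a uridine run broken by single bases. These made 6 runs in 5 genes, 2 in DDX46 and 1 each in RBM25, SF3B3, SNRPD1 and U2AF1. The run of U2AF1, at 44521550 to 44521564, spans 15 nt with 14 uridines in its 2 tracts. That of RBM25, at 73535622 to 73535635, spans 14 nt with 13 uridines and touches its motif. In a list of other spliceosome genes, described below, 0 of the 121 switch sites had a neighbour 1 nt away. Such a neighbour was found for 13 of the 97 core spliceosome sites (13.4%, interval 7.33% to 21.8%), against 4.36% of the sites of other genes (interval 4.02% to 4.72%). The 13 tracts are pieces of 6 runs and so are not independent, the interval treats them as if they were, and this feature was picked after the sites had been seen.

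**Figure D4:**
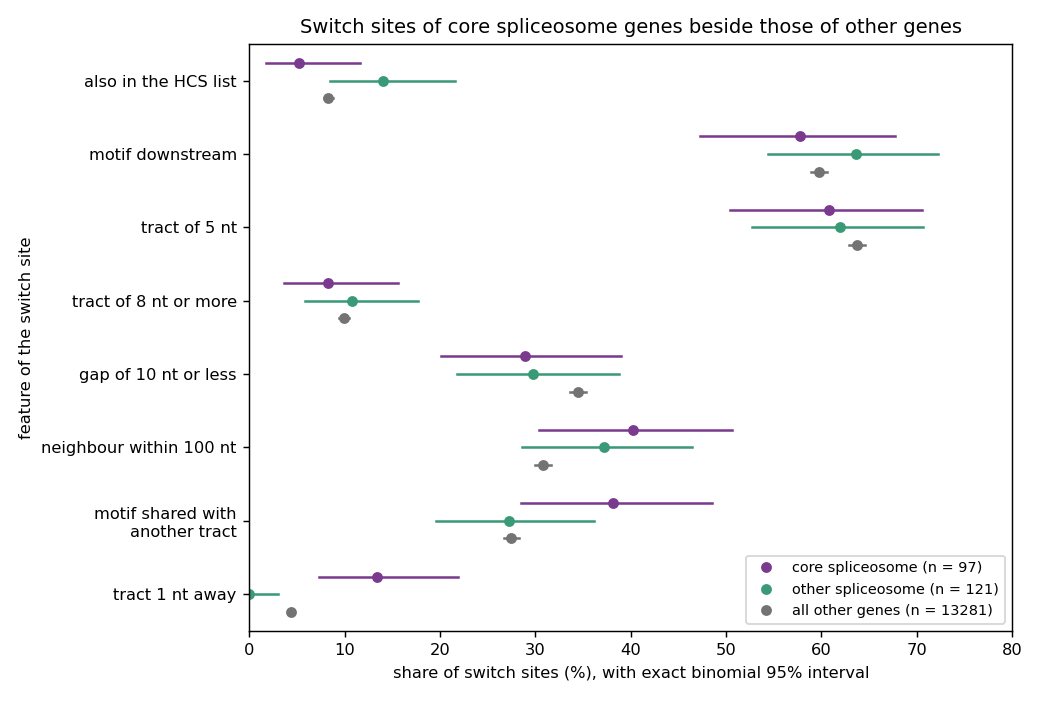
Share of switch sites with each feature (x axis, %, points with exact binomial 95% intervals) in core spliceosome genes (97 sites), in a list of other spliceosome genes (121 sites) and in all genes outside the core list (13281 sites, the other spliceosome genes included). The intervals of the core spliceosome genes hold the value of all other genes except for sharing a motif with another tract (38.1% against 27.5%) and for a tract 1 nt away (13.4% against 4.36%), where tracts of 1 motif or run are counted as if independent.

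Along the transcript, the core spliceosome switch sites lay at a median of 15398 nt from the start (interval 12198 to 22206 nt), and those of other genes at 21941 nt (interval 21308 to 22518 nt). Gene length was not used here, so this does not place the sites within their genes. Within the core spliceosome genes, the SNRPD1 tracts at positions 571 and 577 were the only switch sites within 1000 nt of a start. They made up 2.06% of the core spliceosome switch sites (interval 0.251% to 7.25%), against 2.15% in other genes. No core spliceosome site was listed under a further gene.

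Beyond the 42 genes, 70 other spliceosome proteins were listed for comparison, among them the LSm ring, step-specific factors and U11/U12 proteins. A switch site was held by 64.3% of the core genes, against 32 of these 70 (45.7%, interval 33.7% to 58.1%), and their intervals overlap. An HCS site was held by 19.0% of the core genes, against 10 of the 70 (14.3%, interval 7.07% to 24.7%). HCS sites in the 70 genes numbered 24. Of these, 17 were in the switch list (70.8%, interval 48.9% to 87.4%), against 40.1% of all HCS sites, and 9 were exonic (37.5%, interval 18.8% to 59.4%), against 17.0% of all HCS sites. Both intervals lie above the share of all HCS sites, but several of the 24 sites share a gene, and the difference was not tested. PRPF4B, a kinase of the pre-mRNA splicing machinery, held 11 switch and 5 HCS sites. U2SURP, a U2-associated SR-like protein, held 15 switch and 3 HCS sites, and SART3, the U4/U6 recycling factor, held 5 switch and 3 HCS sites. LSM4, DDX42, AQR and PPIL1 held 1 HCS site each, and so did SMNDC1, which had no switch site. LSm genes held switch sites in 3 of 7 cases, the U11/U12 proteins in 2 of 8 and the exon junction complex in 2 of 3, against 19.9% of the protein-coding genes.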

How the data were processed

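The 18 samples form 9 groups of 2 by their titles, and nothing in the labels says that replicates are separate cultures. The submitters' processing notes name hg19, Bowtie 1.0.0 and Trimmomatic, and for RNA-seq also DESeq, Cuffdiff, Cufflinks and TopHat 1.1.4. How sites were called, with which thresholds and on which pooled samples is not given in the sources used here. The deposited lists hold, per the file headers, positions, U-tract lengths and distances in nt, with no read counts. Changes of occupancy, abundance and splicing after knockdown were not analysed here.

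The 17352 switch and 2798 HCS entries were reduced to 13378 and 2748 distinct U-tracts, with X and Y copies counted once. Lengths and distances matched the positions in every entry. The listed distance includes the 5 nt of an upstream motif, so the edge-to-edge gap was used. Blank symbols (756 switch entries) were looked up by transcript in a RefSeq table of GRCh38, used for names only, which matched 753, and LSM8 was matched the same way. The core genes took 110 switch entries by symbol, 2 by transcript, and 10 HCS entries.

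The members and lists were chosen with earlier results of these data known. The rule for named genes took every core gene with an HCS site and the 5 with the most switch sites, the rest by role, and from the other spliceosome list the genes with an HCS site and the 3 with the most switch sites. Some genes that this rule takes are not reported here. The gap code recovered 400 of 400 simulated placements. Alternatives changed symbols, minimum length, merging of tracts and neighbour distance. Computations ran in Python 3.11.15 with scipy 1.17.1, pandas 2.3.3, numpy 2.4.6 and matplotlib 3.10.9.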

Additional observations from a re-analysis of the deposited data

How the results depend on the processing

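With symbols exactly as listed, the core list had 95 switch sites in 26 genes, since SNRPD3 was lost, and the HCS counts did not move. Requiring U-tracts of 6 nt or more left 38 switch sites in 16 genes and 4 HCS sites in 4 genes, and 21.1% of switch sites then had a neighbour within 100 nt. With the nearest U-tract of each motif alone there were 77 switch sites, and 2.60% had such a neighbour, by construction. With at least 2 motifs required, an alternative added after the sites were seen, 17 genes qualified. The median gap ranged from 16 to 19 nt over its alternatives. The distance as listed, which includes the 5 nt of an upstream motif and so is another measure, had a median of 20 nt. With a switch site within 100 nt counted as a match, the share of the 10 HCS sites stayed at 50.0%, the 5 found in the switch list itself. Within 1000 nt, an alternative also added after the sites were seen, 7 of the 10 HCS sites had a switch site of their gene. The share of all HCS sites with a switch site that near was not computed. Of the 4 HCS sites of 6 nt or more, 2 were in the switch list. No paired analysis was possible because the lists hold no values per sample, and replicates could not be left out for the same reason. How sequencing depth shaped the lists cannot be told, since no depth is known.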

Other observations

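The factors that build snRNPs were looked at after the core list, with 17 genes of the SMN complex, Sm methylation, snRNA transport and the Cajal body. Switch sites were listed in 11 of them, with 22 sites, against 19.9% of the protein-coding genes, and HCS sites in 2, against 8.66%. TGS1, which hypermethylates the cap of snRNAs, held 5 switch sites, and CLNS1A, which chaperones Sm proteins, held 3. SMN1 and SMN2 held 3 each at the same transcript positions. They are near-identical copies, so their sites cannot be told apart, yet both genes and all 6 sites are in these counts. COIL, the Cajal body protein coilin, held 1 exonic HCS site at 55027395 to 55027400 on the minus strand of chromosome 17, which was also in the switch list and touches its motif. STRAP, a partner of the SMN complex, held an exonic HCS site at 16036524 to 16036528 on the plus strand of chromosome 12 that was not in the switch list. PRMT5, DDX20, GEMIN6, GEMIN7, GEMIN8 and PHAX held no site.

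A pair of nearby HCS tracts occurred in another spliceosome gene. U2SURP, on chromosome 3 (plus strand), held HCS tracts that start at 142772050 and 142772065, with downstream gaps of 24 and 9 nt, and the switch list holds the second.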
